A study of Mus musculus with 3 samples.

Results

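Type I interferon-stimulated genes were followed across the leukocytes of 4T1 mammary tumors, a transplanted mouse model of triple-negative breast cancer. The members were a list of 37 genes known to respond to interferon and selected on cluster-leading levels and ratios to vehicle seen earlier in these same libraries, so every level and ratio below is a description and no test is attached to it. Of the 37 listed genes, 35 had a measured entry among 32285 genes in all, and Mx1 and Mx2 were not analysed here. Female BALB/c mice aged 6 to 8 weeks received 200000 4T1-luc cells, which express luciferase, in the mammary fat pad, and tumors were taken on day 14. In the vehicle group the tumor cells carried wildtype p38a and the mice received DPBS by gavage. In the p38i group the same wildtype tumor cells were grown and the mice received LY2228820 (ralimetinib), an oral inhibitor of the p38α and p38β kinases, at 30 mg/kg daily for 10 days from day 4. In the p38KO group the implanted cells were the line p38a-KO-H9, a single CRISPR-Cas9 knockout clone, and the labels give no treatment for these mice. The knockout was therefore in the tumor cells and not in the host leukocytes, whereas the inhibitor could reach both. Live CD45+ cells were sorted from 3 tumors per group, pooled and loaded as 1 droplet library per group, so there was no replicate library, the group cannot be told apart from the library, and p38i and p38KO share the same vehicle library as their reference.

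Type I interferons bind a receptor of the subunits IFNAR1 and IFNAR2, whose kinases JAK1 and TYK2 activate the factor ISGF3. This factor, of which STAT2 and IRF9 are subunits, binds interferon-stimulated response elements in promoters and switches on genes that sense viral RNA, block its translation or degrade it, and feed back on the pathway. In tumors such transcripts are found in many leukocytes, and a neutrophil state marked by them has been described in mice and humans.

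Isg15 encodes a ubiquitin-like modifier, Rsad2 encodes viperin, and the Ifit genes encode proteins that bind viral RNA. The stretches of their promoters shown here are those that hold the core of an interferon-stimulated response element, GAAANNGAAA, which reads TTTCNNTTTC on the other strand. Capitals mark the matches, overlapping matches are run together, and each stretch is written 5′ to 3′ on the strand of its gene (RefSeq, GRCm38.p6). They are chr4:156200855-156200916 on the minus strand for Isg15, chr12:26456543-26456592 on the minus strand for Rsad2, chr19:34640765-34640833 on the plus strand for Ifit1, chr19:34583353-34583436 on the plus strand for Ifit3, chr19:34607749-34607832 on the plus strand for Ifit3b and chr5:120907526-120907565 on the minus strand for Oas1a, all upstream of the annotated start site.
Isg15: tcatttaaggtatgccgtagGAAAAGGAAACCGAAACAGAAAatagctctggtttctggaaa
Rsad2: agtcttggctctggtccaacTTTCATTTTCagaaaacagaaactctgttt
Ifit1: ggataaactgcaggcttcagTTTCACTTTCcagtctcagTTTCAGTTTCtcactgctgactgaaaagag
Ifit3: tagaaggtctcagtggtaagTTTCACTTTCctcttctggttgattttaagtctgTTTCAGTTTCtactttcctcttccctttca
Ifit3b: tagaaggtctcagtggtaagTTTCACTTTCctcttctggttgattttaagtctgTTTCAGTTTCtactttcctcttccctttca
Oas1a: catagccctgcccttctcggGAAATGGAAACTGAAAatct

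The stretch of Ifit3b was identical to that of Ifit3, with 0 of 84 bases differing. Isg15 held 3 overlapping matches, Ifit1, Ifit3, Ifit3b and Oas1a held 2 each, and Rsad2 held 1. Promoter windows of 300 bases, from 250 before to 50 after the start site, were matched for 28 of the 35 members, and 16 of these 28 (57.1%) held the core on either strand, against 3.99% of 27025 genes in the same table. More than 1 match was found in 8 members and in 0.266% of all genes. These 8 were not all separate: Ifit1 and Ifit1bl2 share the stretch printed for Ifit1, on opposite strands, and Ifit3 and Ifit3b hold identical stretches. A match is a description of letters and not a binding site, and the list was assembled from genes known to respond to interferon. The ratios of members with and without the core overlapped: in the neutrophils described below, the 16 members with a match had a median log2 ratio of −0.62 in p38i, the 12 members without a match −0.78, and in p38KO the medians were 0.76 and 0.60. Ifit3b, Ifit3 and Ifit1, with 2 matches each, and Ifit2, with no match in its window, were among the members with the largest p38i ratios. Oas1a, with 2 matches, showed no detectable difference between the libraries, at a low mean level of 7.75 CPM. Whether the matches bear on the ratios was not tested.

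Several members lie side by side in the genome (GENCODE M21, GRCm38). The 5 Ifit genes Ifit2, Ifit3, Ifit3b, Ifit1bl2 and Ifit1 fall within 99.3 kb at chr19:34550694-34650009. Rsad2 and Cmpk2 neighbour each other within 37.1 kb at chr12:26442746-26479837. Isg15 lies at chr4:156199424-156200818, Ifi27l2a at chr12:103442167-103443680 and Slfn4 at chr11:83175186-83190216. In the last 500 bases of their transcripts, where the sequencing reads fall, 33 of the 35 members shared no tested stretch of 90 bases with another gene. Ifit3 shared 3 of 42 stretches with Ifit3b, so Ifit3b holds them as well, although none of the stretches tested from Ifit3b itself was shared. How far this affects the values of Ifit3 and Ifit3b was not tested. Oas1a shared 18 of 42 with Oas1g, so the values of Oas1a are uncertain.

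The libraries held 4588, 6343 and 5212 barcodes in the order vehicle, p38i and p38KO, which is the order of every set of 3 values below. Barcodes passed with at least 1500 UMIs (unique molecular identifiers, which mark each captured transcript once), 300 genes or more and no more than 20% of their counts from mitochondrial genes, which left 3820, 4793 and 3859 cells with 20795195, 24210342 and 24374173 UMIs. From 4 to 5 kept barcodes were common to each pair of libraries. The median share of mitochondrial counts was 0.671%, 0.968% and 2.10%. Cells were placed in gates by raw counts of 1 or 2 genes: Csf3r and Cxcr2 for neutrophils, Ly6c2 and Fn1 for monocytes, C1qa for macrophages, Cd3e for T cells, Ncr1 for natural killer (NK) cells and Flt3 for dendritic cells (DC). These gates took in 74.1%, 76.5% and 75.4% of the kept cells, and doublets were not called. In the neutrophil gate the independent markers S100a8, S100a9, Retnlg, Mmp9, Ly6g and Clec4d summed to 184123, 207031 and 139767 UMIs per 1000000 UMIs of the gate (CPM), and all 6 had UMIs in each library. The NK gate carried the NK markers Klrb1c, Klre1, Gzma, Eomes and Klrd1, whereas Klra8 was at 0, and in the p38KO library it also held 747 CPM of mast cell and basophil markers, against 47.4 and 20.1 CPM in the other libraries.

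The interferon-stimulated transcripts sat mainly in neutrophils and monocytes, and in both they were highest in the tumors with p38KO cells and lowest in the mice given p38i. Summed over the 35 members, the level in the neutrophil gate (1751, 2075 and 1529 cells) was 9865 CPM in vehicle, 5245 CPM in p38i and 15141 CPM in p38KO. In the monocyte gate (439, 752 and 363 cells) it was 6873, 5165 and 9011 CPM. The macrophage gate (153, 168 and 457 cells) held 2145, 2096 and 3864 CPM and the T cell gate (385, 538 and 423 cells) 2316, 2309 and 3622 CPM. In both of these the vehicle and p38i libraries lay close together and p38KO stood above them. The NK gate (83, 93 and 96 cells) had the lowest level in each library, at 1056, 598 and 743 CPM, and there vehicle was the highest. The DC gate (20, 40 and 41 cells) held 1717, 1745 and 2642 CPM.

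**Figure D1:**
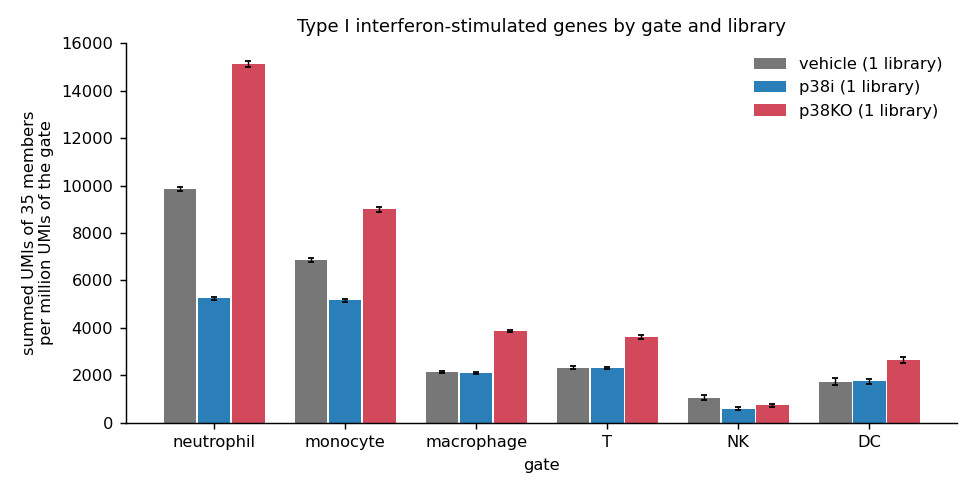
Summed CPM of the 35 members in each gate (y axis) in the vehicle, p38i and p38KO libraries, 1 pooled library per group. Bars are levels and error bars are exact Poisson 95% intervals, which cover counting error only. Neutrophils and monocytes stand above the other gates, and p38i lies below vehicle in both while p38KO lies above it in every gate but NK.

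On the log2 scale the p38i library differed from vehicle by −0.91 (95% interval −0.93 to −0.89) in neutrophils and by −0.41 (−0.44 to −0.39) in monocytes. The intervals are exact conditional binomial intervals that cover counting error only, not the spread between tumors or between cells. The variance of member UMIs per thinned neutrophil was 30.1, 15.8 and 32.5 times their mean. The intervals are therefore narrower than the spread between cells within 1 library would give, and the calls below use the same kind of interval. In macrophages, T cells and DC the difference between p38i and vehicle was −0.03 (−0.09 to 0.02), −0.00 (−0.06 to 0.05) and 0.02 (−0.13 to 0.18), so no difference was detectable at this depth. The p38KO library lay above vehicle by 0.62 (0.60 to 0.63) in neutrophils, 0.39 (0.37 to 0.41) in monocytes, 0.85 (0.81 to 0.89) in macrophages, 0.65 (0.59 to 0.70) in T cells and 0.62 (0.48 to 0.77) in DC. In NK cells both lay below vehicle, p38i by −0.82 (−1.02 to −0.62) and p38KO by −0.51 (−0.70 to −0.32), on 468, 357 and 481 member UMIs.

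The scale itself moved a little. The median tested gene of the neutrophil gate stood at 0.11 in both p38i and p38KO, and S100a8 and S100a9 alone took up 18.0%, 20.1% and 13.6% of the UMIs of that gate. With those 2 genes left out of the total, the neutrophil differences were −0.87 and 0.54. With the median gene set to no change they were −1.02 and 0.51. The neutrophil marker sum was higher in p38i and lower in p38KO than in vehicle, and its part in the member levels beyond this rescaling was not tested.

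An estimate was made of neutrophil RNA carried over into other droplets. Every S100a9 UMI found there was taken to come with the mean ratio of members to S100a9 in the neutrophil gate. Such RNA would account for 7.39% of the member level in the monocyte gate of the vehicle library, the highest value, and for as little as 0.437% elsewhere. This is not a bound, because that ratio can differ between cells. In vehicle, cells in no gate held 8444 CPM of members beside 55341 CPM of the 6 neutrophil markers, against 9865 and 184123 CPM in the neutrophil gate.

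A handful of members made up most of the signal. Ifi27l2a gave 18.7% of all 384772 member UMIs, Isg15 12.7%, Rsad2 8.04%, Slfn4 4.80%, Rtp4 4.51%, Trim30a 4.50%, Parp14 3.66% and Irf7 3.63%, and these 8 together made 60.6%. Oas1a, an oligoadenylate synthase, gave the least at 0.135%. Because each UMI marks the 3′ end of 1 transcript, these shares compare transcripts without scaling for gene length.

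The gates differed in which members they held. Of the 35 members, 22 had their highest mean level in neutrophils, 12 in monocytes and 1, Ifi35, in DC. Ifit1bl2 stood out most for neutrophils, at 39.9, 25.9 and 68.3 CPM there, 59.8 times its mean level in the other 5 gates, followed by Slfn4, a Schlafen family gene of myeloid cells, at 24.3 times. Monocytes were marked by Ifi44 at 354, 254 and 500 CPM (5.39 times) and by Dhx58, which encodes the RNA sensor LGP2, at 67.8, 50.1 and 83.7 CPM (3.75 times). The pair of genes with the largest ratio in macrophages was Bst2, at 1.98 times, and Oas1a, at 1.69 times. Bst2 encodes tetherin, a protein that holds budding virus at the membrane. Bst2 and Oas1a had a higher mean level in monocytes, at 2.16 and 3.04 times. In DC the pair was Eif2ak2, the double-stranded RNA-activated kinase PKR, at 1.71 times, and Ifi35 at 1.44 times. Eif2ak2 also had a higher mean level in monocytes, at 1.85 times. In NK cells no member rose far above the other gates: Ddx58, which encodes the RNA sensor RIG-I, was at 1.01 times and Ifi35 at 0.775 times.

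In T cells the member signal was largely 1 gene. Ifi27l2a was at 1041, 1088 and 1853 CPM, 1.73 times its mean level in the other gates, and made up 44.9%, 47.1% and 51.2% of the member UMIs there. Its mean level was higher still in monocytes, at 3.12 times that of the other gates. Isg15, by comparison, was at 120, 72.6 and 140 CPM in T cells. In neutrophils Ifi27l2a made up 7.13%, 6.74% and 7.43% of the member UMIs, and Isg15 20.3%, 18.1% and 18.1%.

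**Figure D2:**
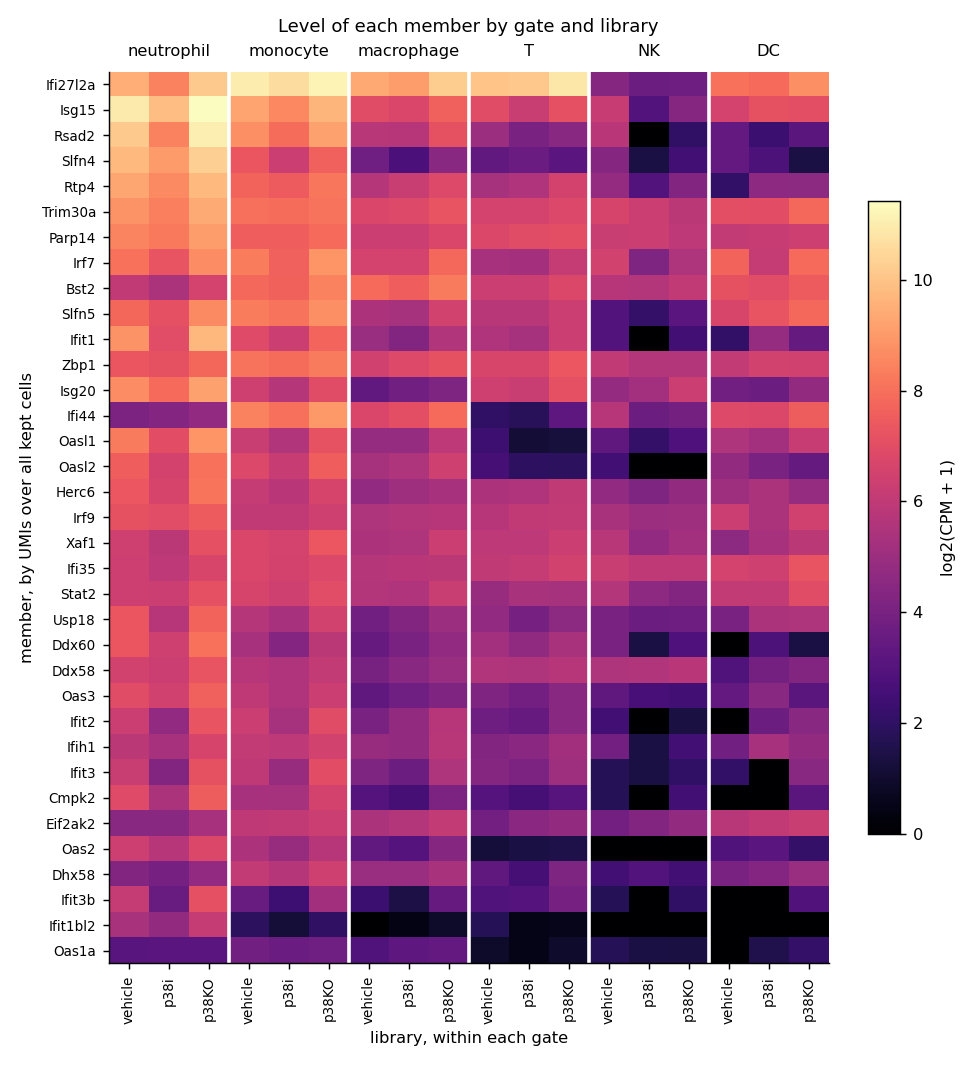
Level of each of the 35 members (y axis, ordered by UMIs over all kept cells) in the vehicle, p38i and p38KO libraries within each gate (x axis). The color is log2(CPM + 1). Isg15, Rsad2, Slfn4 and Ifit1 are brightest in neutrophils, Ifi27l2a is bright in all gates but NK, and Ifi44 is brighter in monocytes than in neutrophils.

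In neutrophils, Ifit3b, Ifit3, Ifit1, Rsad2 and Ifit2 had the largest p38i ratios, in that order. Ifit3b was at 68.4, 11.0 and 139 CPM, a log2 ratio to vehicle of −2.63 (−3.03 to −2.26) in p38i. Its p38KO ratio was 1.02 (0.83 to 1.22), and both were the largest in either direction in this gate. Ifit3 was at 73.8, 18.8 and 142 CPM, Ifit1 at 459, 127 and 820 CPM and Ifit2 at 77.2, 24.9 and 151 CPM. All 4 of these Ifit genes were lowest in p38i and highest in p38KO, with ratios between −2.63 and −1.63 in p38i, and in p38KO between 0.84 and 1.02. Ifit1bl2, the member of this cluster on the opposite strand, differed by −0.62 and 0.78.

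Rsad2, whose product converts CTP into a chain terminator of viral RNA synthesis, was at 1134, 353 and 2086 CPM in neutrophils, log2 ratios of −1.68 (−1.75 to −1.61) and 0.88 (0.83 to 0.93). Cmpk2, a nucleotide kinase next to it on chromosome 12, was at 118, 41.5 and 183 CPM, with ratios of −1.51 and 0.63. Isg15 had the highest level of any member there, at 2004, 952 and 2740 CPM, with ratios of −1.07 (−1.12 to −1.03) and 0.45 (0.41 to 0.49). Usp18, which removes ISG15 from proteins and dampens signaling at the receptor, was at 155, 51.7 and 207 CPM (−1.59 and 0.41). Herc6, an E3 ligase for ISG15 in mice, was at 162, 96.9 and 283 CPM (−0.74 and 0.81). In all 5 genes vehicle lay between the other libraries, but the distance to p38i and to p38KO differed between genes, with Usp18 farther from p38i and Herc6 about as far from both.

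In the oligoadenylate synthase family, some but not all members activate an RNase in response to double-stranded RNA. Within this family Oasl1 and Oasl2 had the largest p38i ratios, and Oasl1 and Oas3 the largest p38KO ratios. Oasl1 was at 306, 129 and 475 CPM in neutrophils (−1.24 and 0.64) and Oasl2 at 189, 92.8 and 267 CPM (−1.03 and 0.50). Oas3 was at 123, 86.8 and 192 CPM (−0.50 and 0.64) and Oas2 at 81.3, 52.0 and 108 CPM (−0.64 and 0.42). Oas1a, at 7.64, 7.82 and 7.78 CPM, showed no detectable difference, with intervals of −0.59 to 0.67 and −0.70 to 0.73.

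The RNA and DNA sensors among the members did not move as 1 group. Ddx58 was at 89.5, 76.5 and 152 CPM in neutrophils (−0.23 and 0.77), Ifih1, which encodes MDA5, at 57.8, 39.4 and 97.9 CPM (−0.55 and 0.76), and Zbp1, a sensor of Z-form nucleic acid, at 155, 143 and 218 CPM (−0.11 and 0.49). Dhx58 was at 18.1, 14.5 and 25.4 CPM (−0.32 and 0.49). Ddx60, a helicase tied to RIG-I signaling, had the largest p38i ratio of these, at 158, 82.7 and 268 CPM (−0.93 and 0.76). Eif2ak2 was level between vehicle and p38i, at 21.2 and 21.2 CPM, and higher in p38KO at 39.7 CPM (−0.00 and 0.90).

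The 3 transcription factors were unalike. Irf7, which amplifies interferon production, was at 268, 151 and 404 CPM in neutrophils (−0.83 and 0.59). Stat2 was at 81.8, 76.6 and 137 CPM (−0.09 and 0.75) and Irf9 at 142, 126 and 177 CPM (−0.17 and 0.32). Irf7 was thus farther from vehicle in p38i than the 2 subunits of ISGF3, which kept close to the vehicle level there.

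The other abundant members followed the same order of libraries in neutrophils. Ifi27l2a was at 703, 353 and 1126 CPM (−0.99 and 0.68), Slfn4 at 851, 519 and 1234 CPM (−0.71 and 0.54) and Rtp4, of a family of receptor chaperones, at 624, 391 and 869 CPM (−0.67 and 0.48). Trim30a, a tripartite motif protein, was at 469, 331 and 672 CPM (−0.50 and 0.52), and Parp14, an ADP-ribosyltransferase, at 356, 299 and 533 CPM (−0.25 and 0.58). Bst2 was at 64.9, 42.5 and 96.1 CPM (−0.61 and 0.57). Ifi44 was the member with the highest ratio in p38i, at 0.22 (−0.18 to 0.64), an interval that includes no difference.

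Taking each gene as called where its log2 ratio was at least 0.5 either way, its interval left out 0 and both libraries held at least 20 counts together, 25 of the 35 members tested in neutrophils were called lower in p38i, against 3.16% of all 8870 genes tested in that gate and direction. The median log2 ratio of the 35 was −0.66, beside 0.11 over all genes tested, with a range from −2.63 to 0.22, and 0 were called higher, against 8.65% of all genes. In p38KO, 24 of 35 were called higher, against 10.0% of 8509 genes, with a median of 0.63 and a range from 0.03 to 1.02. None was called lower, against 2.63% of all genes. With the median gene set to no change, 26 were lower in p38i and 18 higher in p38KO. For this and the other changed settings below no share over all genes is given, so those counts have no background beside them. The members were listed with these values in view, so the counts describe the list and support nothing further. The level of 33 of the 35 members was ordered p38i, vehicle, p38KO in neutrophils, the exceptions being Ifi44 and Oas1a. The share of all genes in this order was not computed, here or for the monocytes below.

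In monocytes the same order held for 33 of the 35 members, with smaller differences. In p38i 13 of 34 members were called lower, against 2.73% of all genes, with a median of −0.39 beside 0.05 over all genes, and in p38KO 14 of 35 were called higher, against 8.88% of all genes, with a median of 0.43 beside 0.09. Ifit3b again lay at both ends, at 10.9, 4.31 and 34.5 CPM, log2 ratios of −1.34 and 1.66 on 45, 27 and 106 UMIs. Ifit3 was at 61.9, 28.6 and 128 CPM (−1.12 and 1.05), Rsad2 at 440, 245 and 578 CPM (−0.85 and 0.39) and Isg15 at 618, 385 and 811 CPM (−0.68 and 0.39). Ifi27l2a, the most abundant member of the monocyte gate, was at 2057, 1571 and 2310 CPM (−0.39 and 0.17) and was not called in either. Cmpk2 was level between vehicle and p38i here, unlike in neutrophils, at 39.4, 38.6 and 92.8 CPM in monocytes (−0.03 and 1.24).

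**Figure D3:**
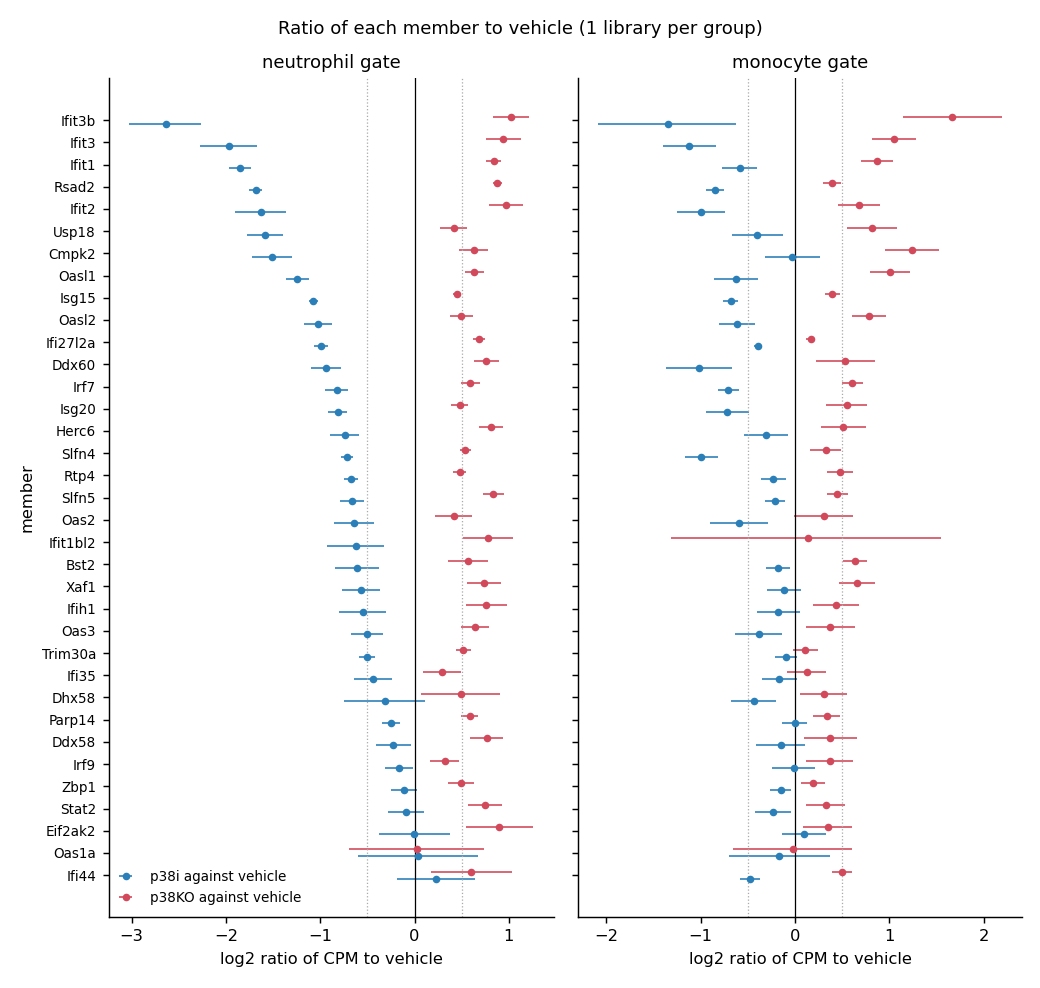
Log2 ratio of CPM to vehicle (x axis) of each member (y axis, ordered by the p38i ratio in neutrophils) in the neutrophil gate (left) and the monocyte gate (right). Points are ratios of 1 library to 1 library, horizontal lines are exact conditional binomial 95% intervals that cover counting error only, and dotted lines mark 0.5 either way. In neutrophils Ifit3b lies farthest out on both sides, at −2.63 and 1.02, and the p38i points run on to Ifi44 at 0.22.

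Markers of other cells in the monocyte gate differed between libraries as well. The 6 neutrophil markers summed to 10862, 9366 and 3421 CPM there and the plasmacytoid DC markers to 101, 197 and 252 CPM. The epithelial tumor markers Epcam, Krt8, Krt18 and Krt19 summed to 5.59, 3.99 and 145 CPM in the same gate, highest in p38KO. Their part in the member values was not tested, apart from the estimate for neutrophil RNA given above.

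In macrophages the difference was seen in the p38KO library, where 28 of 34 members were called higher, against 7.80% of all genes, with a median of 0.91 beside 0.04 over all genes tested. Ifit2 had the largest ratio, at 16.1, 26.0 and 52.5 CPM (0.69 in p38i and 1.70 in p38KO). Ifi27l2a was at 643, 533 and 1207 CPM (−0.27 and 0.91), Irf7 at 94.0, 95.5 and 225 CPM (0.02 and 1.26) and Ifi44 at 104, 133 and 232 CPM (0.35 and 1.16). In p38i, 2 of 33 members were called higher, Ifit2 and Rtp4, against 2.63% of all genes, and 2 lower, Ifit1 and Slfn4, against 3.74%. Slfn4 was at 12.6, 5.62 and 21.3 CPM on 35, 16 and 147 UMIs. Single cells weighed heavily here: 1 of the 457 macrophages of the p38KO library held 1171 of the 26716 member UMIs and 510 of the 979 Rsad2 UMIs. The cell richest in each member was then left out of each library. There 30 members were called higher in p38KO, and in p38i 3 were called higher and 0 lower. The gate itself also differed between libraries, holding 4.01%, 3.51% and 11.8% of kept cells. The macrophage markers C1qb, C1qc, Apoe, Mrc1, Adgre1 and Cd68 summed to 18817, 20263 and 27914 CPM in it. The part of these differences in the member values was not tested.

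In T cells the p38KO library was again the one that differed, with 15 of 30 members called higher, against 8.70% of all genes, and 1 called lower, Rsad2, against 3.65%. The median ratio was 0.50 beside 0.11 over all genes tested, and 11 were higher with the median gene set to no change. Ifi44 had the largest ratio, at 3.14, 2.46 and 8.73 CPM (1.48 in p38KO) on 7, 6 and 19 UMIs, and was no longer called without its richest cell. Rtp4 was at 38.5, 46.4 and 90.5 CPM (0.27 and 1.23), Irf7 at 39.0, 36.9 and 68.9 CPM (−0.08 and 0.82) and Zbp1 at 99.5, 102 and 159 CPM (0.03 and 0.68). In p38i, 2 of 29 members were called higher, Eif2ak2 and Stat2, against 4.57% of all genes, and 4 lower, Rsad2, Usp18, Isg15 and Ddx60, against 2.49%. Eif2ak2 was at 13.4, 22.2 and 25.7 CPM (0.72 and 0.94). Rsad2 was at 31.8, 15.6 and 21.6 CPM (−1.03 and −0.56), but 24 of its 71 UMIs in the vehicle library came from 1 cell. Without the richest cells 2 members were called lower in p38i and 0 in p38KO.

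In the NK gate the members were few and near the floor of detection, with 15 and 17 of them reaching 20 counts. In p38i 6 of 15 were called lower, against 7.16% of all genes, and in p38KO 6 of 17 were called lower, against 7.77%, and 1 higher, Isg20, an RNA exonuclease, against 4.81%. Isg15 was at 72.2, 6.70 and 20.1 CPM on 32, 4 and 13 UMIs. Rsad2 had 25, 0 and 2 UMIs, and no ratio is given for it. Irf7 had 40, 10 and 29 UMIs and Isg20 12, 21 and 49 UMIs. Without the cell richest in each member 3 were called lower in p38i and 4 in p38KO. In the DC gate 8 of 20 members were called higher in p38KO, against 7.43% of all genes, with a median of 0.68 beside 0.09 over all genes tested, led by Usp18 at 16.1, 41.3 and 44.4 CPM on 5, 21 and 27 UMIs. In p38i 2 of 18 were called higher, Ifih1 and Slfn5, against 8.02% of all genes, and 1 lower, Irf7, against 4.09%. Irf7 was at 209, 68.9 and 233 CPM, with 34 of its 65 vehicle UMIs in 1 cell, and none was called higher in p38i once the richest cells were left out.

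Whether more cells carried the transcripts, or each carried more, was asked after thinning every cell to 1500 UMIs, so that libraries and gates of different depth could be compared. A cell with at least 5 member UMIs was counted as on. In neutrophils 65.9% (exact binomial 95% interval 63.6 to 68.1) of cells were on in vehicle, 53.1% (50.9 to 55.3) in p38i and 78.2% (76.1 to 80.3) in p38KO. Cells that were on held a mean of 22.8, 14.2 and 29.0 member UMIs, whereas cells that were not held 2.15, 2.03 and 2.25. The cells did not fall into 2 separate classes at this limit: 99 vehicle neutrophils had exactly 5 member UMIs and 112 had 1 fewer. Median depth before thinning was 2529, 2274 and 2180 UMIs per neutrophil, and the unthinned shares were 80.6%, 69.6% and 85.6%.

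Both quantities differed in neutrophils, and how much each gave depended on where the limit was put. The mean was 15.8, 8.49 and 23.2 member UMIs per cell. Of the difference of −7.28 between p38i and vehicle, 70.4% came from the level in on cells and 28.9% from the share of cells on. Of the difference of 7.43 between p38KO and vehicle, 60.3% came from the level and 39.3% from the share. With the limit at 3 UMIs the share gave 15.5% and 23.6% of the same differences, at 10 UMIs 50.2% and 63.9%, and at 20 UMIs 67.6% and 72.4%, so neither quantity can be named the larger. The other limits were chosen after seeing the data. The upper end of the distribution differed as well: 24.0%, 9.78% and 37.4% of neutrophils held at least 20 member UMIs, while 4.28%, 7.57% and 2.29% held none. The tenth of cells with the most member UMIs held 44.6%, 41.9% and 38.8% of them, the lowest share being that of p38KO.

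**Figure D4:**
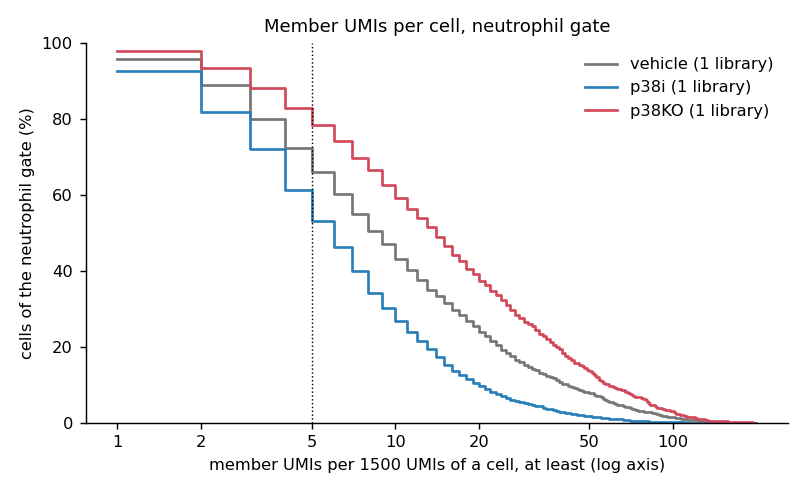
Percent of cells of the neutrophil gate (y axis) that hold at least a given number of member UMIs after thinning to 1500 UMIs per cell (x axis, log scale), in the vehicle, p38i and p38KO libraries. The dotted line marks the limit of 5 UMIs, passed by 65.9%, 53.1% and 78.2% of cells, and the p38KO curve lies above vehicle and the p38i curve below it along most of the range.

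In monocytes 67.0%, 58.1% and 77.4% of cells were on, and 67.8% of the p38i difference and 68.0% of the p38KO difference came from the level at a limit of 5 UMIs. The share gave 16.5% and 22.8% there at a limit of 3 and 47.5% and 61.5% at a limit of 10. In macrophages 27.5%, 24.4% and 51.9% were on, and 64.3% of the p38KO difference came from the share, with 50.9% at a limit of 3 and 63.0% at a limit of 10. In T cells 21.8%, 28.8% and 43.7% were on, and on cells held 12.3, 9.91 and 11.0 member UMIs, so the share gave 112% of the p38KO difference and the level in on cells, lower than in vehicle, gave −22.1%. At a limit of 3 the share gave 68.4% and at 10 it gave 97.2%. At 20, passed by 11 vehicle and 18 p38KO T cells, it gave 19.7%. Much of this difference was Ifi27l2a, at a mean of 1.76, 1.91 and 3.04 thinned UMIs per T cell. All members together gave 3.96, 4.07 and 5.90. The share of T cells on without Ifi27l2a is not given here, so these shares do not show the other members. In NK cells 9.64%, 1.08% and 3.13% were on, which is 8, 1 and 3 cells, and serves as a low reference for the other gates at equal depth. In DC 25.0%, 12.5% and 39.0% were on, which is 5, 5 and 16 cells.

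Single members were too sparse for such a split. Thinned cells with a UMI of a member held a median over members of 1.65, 1.36 and 1.70 UMIs of it in neutrophils, and 25 of 33, 29 of 34 and 22 of 35 members were below 2, near the floor of 1 that a positive cell must hold. A share therefore had more room to differ than a level, and the counts that follow are to be read with that limit. Among the 33 members with at least 20 positive neutrophils in p38i and vehicle, the median log2 ratio of the share was −0.51 and that of the UMIs per positive cell −0.21, and the share differed more in 29. In p38KO the medians were 0.45 and 0.12, and the share differed more in 31 of 33. Rsad2 was found in 29.6%, 16% and 39.3% of neutrophils, against 6.02%, 0% and 0% of NK cells at the same depth, and its positive neutrophils held 6.10, 3.74 and 7.85 UMIs, well above the floor. Its share and its level per positive cell differed by −0.89 and −0.71 in p38i. Ifit3b was found in 5.77%, 1.16% and 10.5% of neutrophils, with ratios in p38i of −2.32 for the share and −0.25 for the level, and its positive cells held 1.98, 1.67 and 2.05 UMIs, so its level could hardly fall. Isg15 was found in 62.8%, 50.9% and 71.4% of neutrophils at 5.22, 3.27 and 6.07 UMIs per positive cell, and there the level differed more than the share, −0.68 against −0.30 in p38i.

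**Figure D5:**
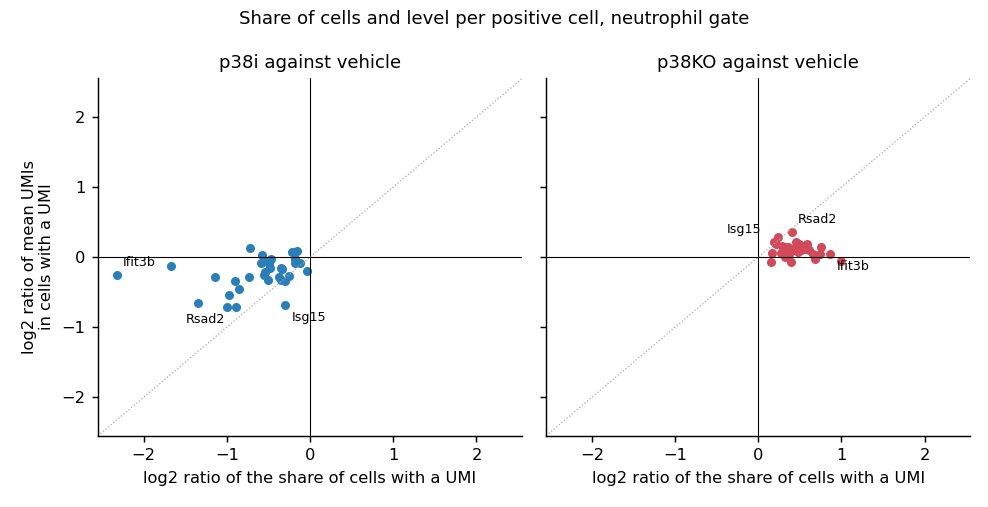
Log2 ratio to vehicle of the share of neutrophils with a UMI (x axis) against the log2 ratio of mean UMIs in cells with a UMI (y axis) for each member with enough positive cells, p38i on the left and p38KO on the right, after thinning to 1500 UMIs. The dotted line marks equal ratios. Most members held under 2 UMIs per positive cell, near the floor of 1, and lie near the x axis, with Ifit3b at −2.32 and −0.25 in p38i and Isg15 on the other side of the line at −0.30 and −0.68.

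The 8 most abundant members were found together in neutrophils to unequal degrees. Neutrophils with an Isg15 UMI held 17.5, 10.3 and 24.4 UMIs of the other members, and those without held 4.03, 3.26 and 5.01, a ratio of 4.35, 3.15 and 4.87. For Rsad2 the ratio was 4.34, 3.55 and 3.74, and for Irf7 2.83, 2.64 and 2.51. Ifi27l2a was the least tied to the others of the 8 most abundant members, with ratios of 1.73, 1.74 and 1.55. Its neutrophils without a UMI still held 12.0, 7.15 and 17.4 UMIs of the other members.

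Genes outside the list were then compared between on and not-on neutrophils of each library, as a description over cells of 1 library. Gbp5, an interferon-inducible guanylate-binding protein, was 12.9, 7.49 and 18.1 times as high in on cells, and Cxcl10, the chemokine that attracts CXCR3-bearing lymphocytes, 10.5, 8.61 and 13.2 times. Cd274, which encodes PD-L1, was 2.21, 2.05 and 3.76 times as high and Ifitm3 2.60, 1.96 and 3.17 times. Ifitm1, of the same family, was not, at 0.889, 0.931 and 0.754 times. Retnlg, a gene of mature neutrophils, was lower in on cells in all 3 libraries, at 0.595, 0.535 and 0.414 times, as was Mmp8, a granule collagenase, at 0.571, 0.643 and 0.674 times. Median depth before thinning was alike in on and not-on neutrophils.

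The rest of the pathway was read from lists of ligands, receptors and signal carriers, sensors, feedback genes and other interferon-stimulated genes. Of 18 type I ligand genes, kept cells held 0, 3 and 12 UMIs in all, from 2 genes, mostly Ifnb1, so the ligands were not measured well enough for a comparison, and the tumor cells themselves were not sorted. Of the receptor and kinase genes in neutrophils, Tyk2 was called higher in p38KO, at 5.96, 6.07 and 11.3 CPM (0.02 and 0.92). Ifnar1 was at 71.4, 68.6 and 93.1 CPM (−0.06 and 0.38), Jak1 at 301, 274 and 316 CPM (−0.13 and 0.07) and Ifnar2 at 219, 188 and 233 CPM (−0.22 and 0.09). Ifnar1, Ifnar2 and Jak1 were not called in either and differed by less than most members did.

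Of the sensors upstream of interferon, 0 of 8 tested in neutrophils were called in p38i, against 3.16% of all genes lower and 8.65% higher, and 2 of 7 were called higher in p38KO, against 10.0% of all genes. These were Cgas, the cytosolic DNA sensor, at 5.59, 8.30 and 20.1 CPM, and the kinase gene Ikbke at 9.88, 12.4 and 24.6 CPM. In monocytes Cgas was at 8.50, 15.5 and 24.1 CPM (0.86 and 1.5), so it did not share the order of the members. Of the 3 feedback genes, Socs1 was called higher in p38KO, at 125, 136 and 202 CPM (0.12 and 0.69). Of the other interferon-stimulated genes in neutrophils, 3 of 32 were called lower and 1 higher in p38i, against 3.16% and 8.65% of all genes, and 8 of 31 higher and 1 lower in p38KO, against 10.0% and 2.63%. Cxcl10 was at 399, 235 and 1160 CPM (−0.76 and 1.54), the largest p38KO ratio of that list, and Gbp5 at 168, 108 and 313 CPM (−0.64 and 0.90). Ifitm1 went the other way, at 8608, 9511 and 5353 CPM (0.14 and −0.69), and Ifitm3 was at 2803, 2396 and 3041 CPM (−0.23 and 0.12).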

How the data were processed

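CD45+ cells from 4T1 tumors were profiled in 3 pooled 10x Genomics libraries, vehicle, p38i and p38KO. The deposited files hold raw UMI counts per gene and barcode, which the authors made with Cell Ranger (6.0.0 in the file headers). The submitters' processing notes also name mm10, R 4.2.1 and Seurat 5. All matrix columns were used (0 left out). The members and all gene lists were chosen with earlier results of these data known.

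Cells were kept with at least 1500 UMIs, 300 genes and at most 20% mitochondrial counts. Gates needed 2 raw counts (Csf3r plus Cxcr2, Ly6c2 plus Fn1, or C1qa) or 1 (Cd3e, Ncr1, Flt3). C1qa took precedence over Ly6c2 and Fn1, the larger sum decided between neutrophil and monocyte, and cells in several gates were left out. Counts were summed per gate and library as CPM, with exact Poisson, conditional binomial and Clopper-Pearson 95% intervals that cover counting error only, and 0.5 stood in for a count of 0. With 1 library per group no test was made. Calls needed a log2 ratio of at least 0.5, an interval without 0 and 20 counts, for every gene of the table alike. Cells were thinned to 1500 UMIs with a fixed seed. Summed UMIs per gate ran from 310969 in vehicle DC to 6914560 in p38KO macrophages, which sets the precision. The calculations were tested on simulated data.

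Named members were the 8 with the most UMIs, the largest called ratio per gate and direction, and the 2 with the largest gate ratio (at least 100 counts). Others were named by family after their values were seen. Of the pathway lists, genes beyond the 4 with the most UMIs were named likewise, and 1 of the listed genes is not reported here. Python 3.11.15, numpy 2.4.6, scipy 1.17.1, pandas 2.3.3 and matplotlib 3.10.9 were used.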

Additional observations from a re-analysis of the deposited data

Results flagged for a closer look

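The p38KO library lay above vehicle in most gates and below it in NK cells. The log2 ratio of the summed members was 0.62 in neutrophils, 0.85 in macrophages, 0.65 in T cells and 0.62 in DC, whereas it was −0.51 in NK cells. With 1 library per group the difference between the gates was not tested. The NK value rests on 481 member UMIs in p38KO and 468 in vehicle, and mast cell and basophil markers in that gate were at 747 CPM in p38KO against 47.4 CPM in vehicle. Their part in the value was not tested.

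Barcodes that failed the cell filter also carried members. In the p38KO library they held 11414 CPM, against 8256 CPM in vehicle and 5542 CPM in p38i, the same order as in kept neutrophils. These barcodes entered no main comparison and were included only where the cell filter was left out as an alternative setting.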

How the results depend on the processing

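No paired analysis was possible because each group has 1 library. Under 8 alternatives, of which leaving out the richest cells was chosen after seeing the data, the summed ratio kept its sign in neutrophils (p38i −1.02 to −0.84, p38KO 0.51 to 0.63), monocytes (−0.48 to −0.31, 0.30 to 0.54) and NK cells (−1.14 to −0.70, −0.73 to −0.32), and in p38KO also in macrophages (0.81 to 1.38), T cells (0.47 to 0.69) and DC (0.54 to 0.96). In p38i it kept its sign in 6 of 8 in macrophages (−0.11 to 0.07) and T cells (−0.09 to 0.03) and 5 of 8 in DC (−0.12 to 0.06). Where a cause of these shifts is not part of the alternative itself, the cause was not tested.

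Values beyond counting error, p38i before p38KO, were as follows. Exclusive gates gave −0.95 and 0.54 in neutrophils, −0.31 and 0.44 in monocytes, 0.0701 and 1.38 in macrophages, −0.0860 and 0.59 in T cells and 0.96 in p38KO DC. Raising the gate minimum gave −0.84 in p38i neutrophils and 0.78 in p38KO DC. Median-ratio scaling gave −1.02 and 0.51 in neutrophils, −0.46 and 0.30 in monocytes and −0.0758 and 0.53 in T cells. A total without mitochondrial and ribosomal protein genes gave −0.39 in p38i monocytes and 0.58 in p38KO T cells. The mean over cells gave 0.54 in p38KO neutrophils, −0.48 and 0.54 in monocytes, −0.11 and 0.94 in macrophages, 0.51 in p38KO T cells, −1.14 and −0.73 in NK cells and 0.84 in p38KO DC. Without Ifi27l2a the values were 0.48 in p38KO monocytes, 0.0579 in p38i macrophages and −0.0621 and 0.47 in T cells.

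With a limit of 1 on the log2 ratio, members called lower in p38i were 10 in neutrophils, 3 in monocytes, 1 in macrophages and 1 in T cells, and those called higher were 0 in macrophages, 0 in T cells and 1 in DC. In p38KO those called higher were 1 in neutrophils, 4 in monocytes, 14 in macrophages, 3 in T cells and 3 in DC, and 0 were lower in T cells. A minimum of 50 counts left 1 lower in p38i and 2 lower in p38KO in NK cells and 1 higher in p38i DC, where no minimum gave 4. Median-ratio scaling left 0 higher in p38i T cells, and 0 higher and 2 lower in p38i DC. Without the richest cells, 0 were lower in p38i macrophages, 2 in p38i T cells, 0 in p38KO T cells and 3 in p38i NK cells, and 0 were higher in p38i DC. Shares over all genes are given only for the main setting, so these counts cannot be set against a background.

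The share of neutrophils on was 79.9%, 72.0% and 88.0% with at least 3 member UMIs, 43.1%, 26.9% and 59.1% with at least 10, 80.6%, 69.6% and 85.6% unthinned, and 63.0%, 50.2% and 74.6% without Ifi27l2a, in the order vehicle, p38i, p38KO, which was the same order of libraries in each. The NK and DC gates held 83 to 96 and 20 to 41 cells per library, so their values rest on few cells.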

Other observations

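Kept cells in none of the gates, or in several, carried members too. Cells in no gate (635, 808 and 455 in vehicle, p38i and p38KO) held 8444, 4479 and 9610 CPM of member UMIs, and their neutrophil markers summed to 55341, 72695 and 34599 CPM. Cells in several gates (354, 319 and 495) held 3462, 3249 and 4436 CPM. The order of the libraries in both was that of the neutrophil gate, but the sizes differed. The log2 ratios to vehicle in p38i and p38KO were −0.91 and 0.19 in cells of no gate. They were −0.09 and 0.36 in cells of several gates, beside −0.91 and 0.62 in the neutrophil gate.

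Interferon-γ, the type II interferon, was read in T and NK cells. Ifng was at 147, 161 and 128 CPM in T cells (log2 ratios of 0.13 and −0.20) and at 36.1, 30.2 and 41.7 CPM in NK cells on 16, 18 and 27 UMIs, and was not called in either.

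Ifitm1 did not keep to 1 order of libraries. It had 14, 123 and 306 UMIs in NK cells (31.6, 206 and 472 CPM), whereas in macrophages it was at 1155, 1727 and 361 CPM and in T cells at 779, 490 and 1121 CPM. It was chosen for mention after its values were seen.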
